A study of Saccharomyces cerevisiae with 24 samples.

Results

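Large-subunit assembly factors are proteins that bind the precursor of the 60S ribosomal subunit in the nucleolus, nucleus or cytoplasm and leave before the subunit translates. They process and modify the precursor rRNA, fold it, place ribosomal proteins on it, export the particle and release its placeholder proteins. In yeast their genes are transcribed together with other ribosome biogenesis genes, and growth conditions move them as a group. The mRNAs of 48 such factors, taken from a list of systematic names, are described here out of 6369 genes in the table. All 48 were counted in every group and all 48 passed the filter on low counts.

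The libraries came from log-phase Saccharomyces cerevisiae (OD 0.6 to 0.8) given cycloheximide, a drug that stops ribosomes where they are on mRNA. The 3 genotypes were ΔRPL22A and ΔRPL22B, each lacking 1 of the 2 genes for the large-subunit ribosomal protein Rpl22, and wild type (WT). For each of these 3 strains, 4 RNA pools were sequenced, namely the input and 3 fractions of a sucrose gradient, which are mRNA on 1 ribosome (monosomes) and mRNA on few or many ribosomes (low and high polysomes in the labels, light and heavy here). Every one of the 12 groups held 2 libraries, biological duplicates per the series design, and the labels name no stress treatment and do not say how many clones a strain stands for. The comparisons ask which assembly factor mRNAs differ in level without RPL22A or RPL22B, and in which ribosome fractions.

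The members fall into 11 groups by role. The RNA-processing enzymes are 3 RNA methyltransferases, NOP2 (YNL061W), RRP8 (YDR083W) and SPB1 (YCL054W), and 6 RNA helicases, MAK5 (YBR142W), DBP3 (YGL078C), DBP9 (YLR276C), HAS1 (YMR290C), SPB4 (YFL002C) and DRS1 (YLL008W). Energy for remodelling and release comes from 3 AAA ATPases, REA1 (YLR106C), RIX7 (YLL034C) and AFG2 (YLR397C), and 3 GTPases, NUG1 (YER006W), NOG1 (YPL093W) and NOG2 (YNR053C). The 7 factors of the ITS2 spacer region or the A3 cleavage step are NOP4 (YPL043W), NOP12 (YOL041C), NOP15 (YNL110C), NOP53 (YPL146C), RRP1 (YDR087C), RLP7 (YNL002C) and CIC1 (YHR052W). Beside them stand 4 Brix-domain proteins, BRX1 (YOL077C), SSF1 (YHR066W), RPF1 (YHR088W) and RPF2 (YKR081C), 3 members of the Nop7 complex, NOP7 (YGR103W), ERB1 (YMR049C) and YTM1 (YOR272W), and 3 Noc proteins, MAK21 (YDR060W), NOC2 (YOR206W) and NOC3 (YLR002C). The 5 export and cytoplasmic factors are RLP24 (YLR009W), TIF6 (YPR016C), ARX1 (YDR101C), REI1 (YBR267W) and NMD3 (YHR170W), and LOC1 (YFR001W) and PUF6 (YDR496C) are 2 RNA-binding factors that also localise mRNA. The other 9 are nucleolar factors, namely NOP16 (YER002W), NOP8 (YOL144W), EBP2 (YKL172W), RRP14 (YKL082C), MAK16 (YAL025C), NSA1 (YGL111W), NSA2 (YER126C), NIP7 (YPL211W) and RSA4 (YCR072C).

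Total counts were 2435632 to 10947937 per library, of which 62.5% to 97.1% fell on 7 rows of the ribosomal DNA (rDNA), so that 314212 to 1950344 counts per library were left for other genes. The 48 genes took 1097 to 13297 counts per library. RPL22B had 0 counts over the 8 ΔRPL22B libraries, against 1329 over the 8 WT libraries, and 6354 over the 8 ΔRPL22A libraries. RPL22A had 3 counts over the ΔRPL22A libraries and 40 over the ΔRPL22B libraries, against 25 over the WT libraries, too few to check its deletion. The strains also differed in mating type. The 6 genes specific to a cells summed to 1.25 to 2.88 CPM (counts scaled to a common library size) in ΔRPL22A libraries and 0.854 to 3.72 CPM in ΔRPL22B libraries, against 59.1 to 229 CPM in WT libraries. The 4 genes specific to alpha cells summed to 377 to 936 CPM in ΔRPL22A and 256 to 1163 CPM in ΔRPL22B, against 0 to 4.23 CPM in WT. In each comparison with WT the deletion and this difference cannot be told apart, whereas both deletion strains carry the alpha pattern. A ΔRPL22A input library (replicate 1) stood near another pool: its correlation over genes was 0.960 with its own replicate and 0.947 with a light polysome library of the same strain. By the margin between these 2 correlations, 3 other libraries stood closest to another pool. They were ΔRPL22A light replicate 2, on the other side of that pair, and 2 libraries of the other strains. ΔRPL22B light replicate 1 had 0.933 with its replicate and 0.931 with ΔRPL22A input replicate 1. WT heavy replicate 2 had 0.931 with its replicate and 0.923 with WT input replicate 2. These 4, with the smallest margins, are called the libraries closest to another pool below.

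Upstream DNA is shown for 5 members, because the members share sequence there that the list did not use. The elements known as PAC and RRPE are found before many yeast ribosome biogenesis genes. They were searched as GATGAG (PAC) and AAAAATTT (RRPE), on both strands, in the 250 bases before each start codon. PAC was present before 45 of 48 members (93.8%), against 1022 of 6001 protein-coding genes (17%). RRPE was present before 43 of 48 members (89.6%), against 804 of 6001 genes (13.4%). Both stood before 40 of 48 members (83.3%), against 4.98% of all genes, and all 48 members had at least 1 of them. The motifs were also frequent before other assembly genes, with PAC at 74.3% of other large-subunit factors, 91.7% of small-subunit processome genes and 87.5% of RNA polymerase I genes, and RRPE at 65.7%, 83.3% and 75%. The genes of other large-subunit ribosomal proteins had each motif at 9.46%. A match describes letters, not a bound site. The lines below give 170 bases, ending 80 bases before the start codon, from the R64 (sacCer3) genome on the strand of the gene, 5′ to 3′. Capitals mark PAC (GATGAG or its reverse complement CTCATC) and RRPE (AAAAATTT or AAATTTTT). NOP15, RLP7, RPF1 and LOC1 are the members called most often in the strain comparisons, and NOP7 carries 3 overlapping PAC copies.
NOP15 (chrXIV:418569-418738, minus strand): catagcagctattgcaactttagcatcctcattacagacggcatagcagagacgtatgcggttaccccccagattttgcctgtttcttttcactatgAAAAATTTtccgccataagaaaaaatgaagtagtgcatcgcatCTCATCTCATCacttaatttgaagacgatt
RLP7 (chrXIV:627223-627392, minus strand): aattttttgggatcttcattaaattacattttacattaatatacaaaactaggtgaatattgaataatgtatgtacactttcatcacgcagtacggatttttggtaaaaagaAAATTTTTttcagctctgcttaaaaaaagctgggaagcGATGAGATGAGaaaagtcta
RPF1 (chrVIII:281245-281414, plus strand): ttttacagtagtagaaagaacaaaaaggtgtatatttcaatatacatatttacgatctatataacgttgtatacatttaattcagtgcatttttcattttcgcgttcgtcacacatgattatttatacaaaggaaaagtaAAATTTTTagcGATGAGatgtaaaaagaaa
LOC1 (chrVI:148860-149029, plus strand): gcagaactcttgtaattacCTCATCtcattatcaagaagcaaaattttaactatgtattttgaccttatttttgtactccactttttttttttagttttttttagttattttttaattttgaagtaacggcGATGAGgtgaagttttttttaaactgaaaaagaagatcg
NOP7 (chrVII:695167-695336, plus strand): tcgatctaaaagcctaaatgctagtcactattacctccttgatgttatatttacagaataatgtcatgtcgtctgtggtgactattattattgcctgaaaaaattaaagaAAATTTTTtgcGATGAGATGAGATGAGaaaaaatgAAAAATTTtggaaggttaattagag
NOP15, RLP7, RPF1 and NOP7 carry both motifs in the printed bases, and LOC1 carries PAC at 2 places with no RRPE match in its window.

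Per length, the members were moderately abundant mRNAs. Their median in WT input was 7.84 CPM per kb of coding sequence, against 3.10 CPM per kb over 5301 tested genes of known coding length and 371 CPM per kb for 72 other large-subunit ribosomal protein genes. TIF6, which encodes the factor that keeps 60S from joining 40S, was highest at 46.1 ± 4.79 CPM per kb (SD, n = 2). RLP24 (30.3 ± 2.25), NIP7 (26.2 ± 3.77), NOG2 (26.0 ± 0.172) and NSA2 (23.1 ± 3.23) followed on the same scale. NIP7, NOG2 and NSA2 overlap in their mean ± SD. The lowest were RRP14 at 1.05 ± 0.383, REA1 at 1.51 ± 0.101 and MAK5 at 1.84 ± 0.388 CPM per kb. REA1 (also called MDN1), a very large AAA ATPase that pulls factors off the precursor, has the longest coding sequence of the members, 14733 bases, and NIP7 the shortest, 546 bases.

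As a group, the 48 mRNAs took a larger share of the non-rDNA counts in ΔRPL22A than in either other strain in each of the 4 pools. In input they summed to 7905 and 11127 CPM of non-rDNA counts in ΔRPL22A and 6796 and 7546 in ΔRPL22B, against 7562 and 7365 in WT. In monosomes they summed to 4703 and 5137 in ΔRPL22A and 2990 and 3609 in ΔRPL22B, against 3669 and 2846 in WT. In light polysomes the sums were 5326 and 6937 in ΔRPL22A and 4507 and 2786 in ΔRPL22B, against 3121 and 2696 in WT. The ΔRPL22A libraries were above both other strains in these 3 pools without overlap, although in input the lower of them exceeded the highest of the others by little. Heavy polysomes held the widest gap in these sums, with 11961 and 8731 in ΔRPL22A and 3816 and 4331 in ΔRPL22B, against 3921 and 5604 in WT. In the fits by gene below, the median log2 fold change over WT was no larger there (0.74) than in monosomes (0.75) or light polysomes (0.79). Over ΔRPL22B it was largest in heavy polysomes (0.95, against 0.87 in monosomes and 0.73 in light polysomes). The sums are shares of the RNA in each library. More mRNA per cell of these genes and less of the others cannot be told apart, nor can a change in some cells of a culture and a change in all.

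**Figure D1:**
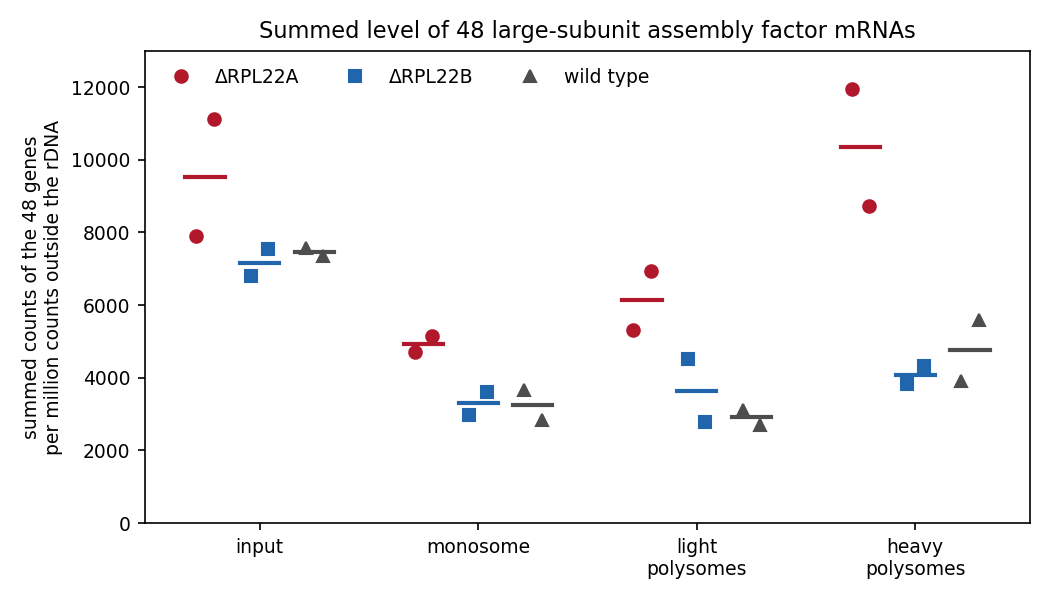
Summed counts of the 48 assembly factor genes in CPM outside the rDNA (y axis) in input, monosomes, light and heavy polysomes (x axis). Points are libraries (2 per group) and bars are means. The ΔRPL22A points lie above those of ΔRPL22B and WT in each pool, with the widest gap in heavy polysomes (8731 and 11961 in ΔRPL22A against at most 5604 in the other strains).

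Gene by gene, log2 fold changes of ΔRPL22A over WT were above 0 in all 4 pools for 36 of 48 members, against 16.0% of the 5380 genes tested. For ΔRPL22A over ΔRPL22B this held for 44 of 48 members, against 15.9% of genes. For ΔRPL22B over WT it held for 0 of 48, against 10.1% of genes. Over the 8 comparisons of ΔRPL22A with WT or ΔRPL22B, 0 members were lower at an unadjusted p under 0.05, and 0 were called lower by DESeq2. The comparisons of ΔRPL22A with WT and with ΔRPL22B share the ΔRPL22A libraries and are not independent.

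In input RNA, 5 of 48 members were higher in ΔRPL22A than in WT at an adjusted p under 0.05 (edgeR quasi-likelihood test, Benjamini-Hochberg adjustment over 5380 genes), and 0 were lower. Of all genes tested, 2.16% were called higher and 2.49% lower. The 5 were LOC1, NOP15, BRX1, RPF1 and RLP7. The median log2 fold change of the 48 was 0.35, against -0.02 over all genes. Non-overlapping libraries with ΔRPL22A higher were seen for 26 members, against 27.2% of all genes. Against ΔRPL22B, 9 members were higher and 0 lower, with 2.32% of genes called higher and 2.94% lower, and 27 members had non-overlapping libraries with ΔRPL22A higher, against 28.4% of genes. These were the same 5 genes and also AFG2, TIF6, NSA2 and YTM1, and the median was 0.47, against -0.03 over all genes. The medians moved to 0.56 over WT and 0.71 over ΔRPL22B without ΔRPL22A replicate 1, and to 0.21 and 0.29 without ΔRPL22A replicate 2, where 28 and 29 members were above 0.

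LOC1, an RNA-binding protein needed both for 60S assembly and for localising ASH1 mRNA, changed most. Its input level was 16.8 and 14.2 CPM in ΔRPL22A and 4.12 and 3.99 CPM in ΔRPL22B, against 4.75 and 5.06 CPM in WT. Both ΔRPL22A libraries were thus far above the 4 others, which lay close together. Its log2 fold change was 1.66 ± 0.34 (SE) against WT, with an adjusted p of 0.00285 (edgeR), and 1.93 ± 0.33 against ΔRPL22B, with an adjusted p of 0.000669 (edgeR).

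NOP15, an RNA-binding protein of the ITS2 region of the precursor, had 22.3 and 21.1 CPM in ΔRPL22A input and 8.63 and 8.93 CPM in ΔRPL22B input, against 11.6 and 8.24 CPM in WT input. The Brix-domain protein BRX1 had 42.8 and 38.9 CPM in ΔRPL22A input and 18.04 and 18.2 CPM in ΔRPL22B input, against 23.4 and 15.9 CPM in WT input. In both genes the ΔRPL22A libraries lay apart from all others, with log2 fold changes over WT of 1.12 ± 0.27 for NOP15 and 1.05 ± 0.27 for BRX1 (adjusted p of 0.0120 and 0.0193, edgeR). At the other end, MAK21 (Noc1), a partner of Noc2 on early precursors, had 6.50 and 8.75 CPM in ΔRPL22A input and 9.32 and 10.2 CPM in ΔRPL22B input, against 8.80 and 11.6 CPM in WT input, and was not called. NOP2, a methyltransferase of 25S rRNA, had 17.9 and 28.6 CPM in ΔRPL22A input and 19.2 and 22.1 CPM in ΔRPL22B input, against 17.7 and 20.7 CPM in WT input, so that its groups overlapped.

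The size of the input difference followed coding length. The 24 shorter members (up to 1455 bases) had a median log2 fold change over WT of 0.59, and 5 of them were called, while the 24 longer members (from 1461 bases) had a median of 0.15 and 0 calls. Spearman's rho between coding length and log2 fold change was -0.71 over the 48 members and -0.51 over 5301 genes, which share the same libraries and are not independent points. Without ΔRPL22A input replicate 1, the library near the light polysomes, rho was -0.56 over members and -0.25 over all genes, and the medians were 0.67 for shorter and 0.45 for longer members. The part of this length trend, and of that library, in the input calls was not tested further. Without that library 0 members passed against WT and 1 (LOC1, log2 fold change 1.81) against ΔRPL22B, and LOC1, NOP15, BRX1, RPF1 and RLP7 kept log2 fold changes over WT of 1.53, 1.08, 0.98, 0.99 and 1.02. Calls against WT numbered 5 without ΔRPL22A replicate 2, 2 without WT replicate 1 and 1 without WT replicate 2. When the other libraries of the ΔRPL22B comparison were left out in turn, 8 members were called without ΔRPL22A replicate 2, while leaving out replicate 1 or 2 of ΔRPL22B gave 2 and 1.

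**Figure D2:**
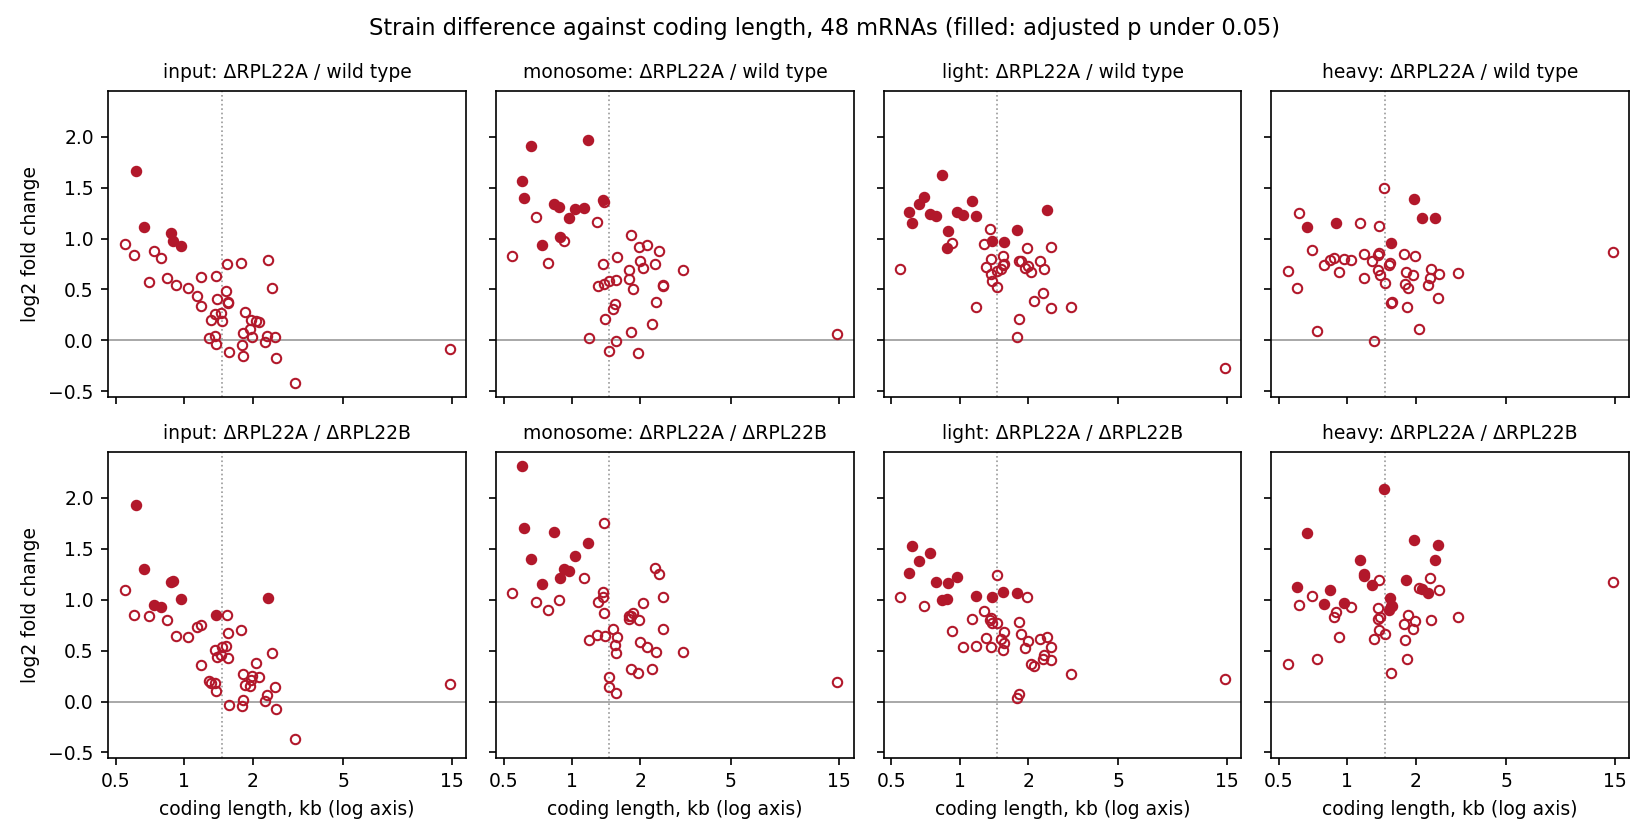
Log2 fold change of ΔRPL22A over WT (top) and over ΔRPL22B (bottom) for the 48 members (y axis) against coding length in kb (log x axis) in each pool, filled where the adjusted p is under 0.05. The dotted line separates the 24 shorter from the 24 longer members. In input the points slope down (rho -0.71 in both rows), while in heavy polysomes they do not (rho -0.17 against WT and 0.11 against ΔRPL22B). They also slope down in monosomes (rho -0.58 in both rows) and light polysomes (rho -0.60 against WT and -0.73 against ΔRPL22B).

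In monosomes, 12 of 48 members were higher in ΔRPL22A than in WT and 0 were lower, with 2.73% of all genes called higher and 2.75% lower (edgeR). The median log2 fold change was 0.75, against -0.03 over all genes, and 37 members had non-overlapping libraries with ΔRPL22A higher, against 25.1% of genes. Of the 7 factors that act on the ITS2 region or the A3 cleavage step, 5 were called (NOP15, RLP7, RRP1, CIC1 and NOP53), as were 3 of 4 Brix-domain proteins. Median log2 fold changes over WT were 1.34 for the ITS2 and A3 factors and 1.15 for the Brix-domain proteins, against 0.50 for the 6 RNA helicases, 0.38 for the 3 AAA ATPases and -0.11 for the 3 GTPases. Role and coding length cannot be told apart here. All helicases, AAA ATPases and GTPases have at least 1461 coding bases, and the Brix-domain proteins at most 1362. Of the ITS2 and A3 factors, only NOP4 (2058 bases) is among the longer members. Against ΔRPL22B, 10 members were higher and 0 lower, with 1.49% of genes called higher and 1.6% lower. The median was 0.87, against -0.01 over all genes, and 41 members did not overlap, against 25.6% of genes.

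RRP8, a methyltransferase of 25S rRNA, had 9.01 and 9.49 CPM in ΔRPL22A monosomes and 3.63 and 2.48 CPM in ΔRPL22B monosomes, against 2.43 and 2.11 CPM in WT monosomes. NOP15 had 16.6 and 18.98 CPM in ΔRPL22A and 5.75 and 7.85 CPM in ΔRPL22B, against 4.32 and 5.499 CPM in WT. Both genes were more than 2 times as high in each ΔRPL22A library as in any other, with log2 fold changes over WT of 1.97 ± 0.37 for RRP8 and 1.91 ± 0.31 for NOP15 (adjusted p of 0.00147 and 0.000298, edgeR). RLP24, a placeholder that Rpl24 later replaces, had 17.9 and 31.4 CPM in ΔRPL22A and 5.45 and 4.13 CPM in ΔRPL22B, against 7.82 and 8.88 CPM in WT. The ΔRPL22A libraries differed from each other but stayed above the rest, and the log2 fold change was 2.32 ± 0.38 over ΔRPL22B (adjusted p of 0.000808, edgeR) and 1.56 ± 0.33 over WT. NMD3, the export adapter of the precursor, had 26.5 and 29.6 CPM in ΔRPL22A and 23.3 and 29.7 CPM in ΔRPL22B, against 28.8 and 27.5 CPM in WT, with overlap between all strains. NOG1, a GTPase, had 38.3 and 29.6 CPM in ΔRPL22A and 30.6 and 25.6 CPM in ΔRPL22B, against 42.5 and 30.9 CPM in WT, and was not called. Its ΔRPL22A libraries overlapped those of both other strains, while both ΔRPL22B libraries lay below those of WT.

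The 24 shorter members held all monosome calls against WT (12, with a median log2 fold change of 1.19), while the 24 longer had a median of 0.56. Over all genes split at the same length, the medians were 0.09 for shorter and -0.16 for longer genes. Spearman's rho between coding length and log2 fold change was -0.58 over members and -0.24 over 5301 genes. Leaving out a library left 6 calls against WT without ΔRPL22A replicate 1, 2 without ΔRPL22A replicate 2, 1 without WT replicate 1 and 4 without WT replicate 2. The comparison with ΔRPL22B gave 1 call when either ΔRPL22A library or ΔRPL22B replicate 1 was left out, and 5 when ΔRPL22B replicate 2 was.

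In light polysomes, 17 of 48 members were higher in ΔRPL22A than in WT and 0 were lower, with 3.42% of all genes called higher and 1.97% lower (edgeR). The median log2 fold change was 0.79, against -0.05 over all genes, and 41 members had non-overlapping libraries with ΔRPL22A higher, against 23.3% of genes. The calls covered 4 of 7 ITS2 and A3 factors, 2 of 3 members of the Nop7 complex (ERB1 and YTM1), 3 of 4 Brix-domain proteins and 3 of 5 export and cytoplasmic factors (ARX1, RLP24 and TIF6). The 24 shorter members held 14 of the calls and the 24 longer 3, so role and length cannot be told apart. Spearman's rho between coding length and log2 fold change over WT was -0.60 over members and -0.05 over all genes. Over ΔRPL22B it was -0.73 and -0.21, with 11 shorter and 2 longer members called. Against ΔRPL22B, 13 members were higher and 0 lower, with 4.2% of genes called higher and 2.99% lower. That median was 0.73, against -0.13 over all genes, and 35 members did not overlap, against 19% of genes.

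TIF6 had 171 and 119 CPM in ΔRPL22A light polysomes and 43.7 and 61.4 CPM in ΔRPL22B light polysomes, against 62.3 and 60.6 CPM in WT light polysomes. LOC1 had 48.6 and 35.0 CPM in ΔRPL22A and 8.91 and 20.3 CPM in ΔRPL22B, against 19.8 and 17.7 CPM in WT. RRP1, a nucleolar factor of 27S rRNA processing, had 13.03 and 18.1 CPM in ΔRPL22A and 8.91 and 6.46 CPM in ΔRPL22B, against 5.54 and 4.20 CPM in WT. In these 3 genes both ΔRPL22A libraries exceeded the 4 others. Log2 fold changes over WT were 1.24 ± 0.27 for TIF6, 1.15 ± 0.32 for LOC1 and 1.63 ± 0.34 for RRP1 (adjusted p of 0.00433, 0.0294 and 0.00324, edgeR). RPF2, a Brix-domain protein that brings 5S rRNA to the precursor, had 17.99 and 15.2 CPM in ΔRPL22A and 13.4 and 9.46 CPM in ΔRPL22B, against 8.30 and 5.47 CPM in WT. It was called against WT (1.23 ± 0.32) and not against ΔRPL22B (0.54 ± 0.28). REA1 had 6.69 and 9.81 CPM in ΔRPL22A and 7.20 and 6.76 CPM in ΔRPL22B, against 13.8 and 4.63 CPM in WT, with WT duplicates on either side of the other strains.

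Without the 4 libraries closest to another pool, 26 members were called against WT and 12 against ΔRPL22B. Fitting the compared groups alone ended the 13 calls against ΔRPL22B (0 called), where the member median stayed at 0.68. Leaving out a library left 5 calls against WT without ΔRPL22A replicate 1, 8 without ΔRPL22A replicate 2, 5 without WT replicate 1 and 2 without WT replicate 2. The comparison with ΔRPL22B gave 8 when either ΔRPL22A library was left out, 11 when ΔRPL22B replicate 1 was and 16 when ΔRPL22B replicate 2 was.

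In heavy polysomes, 6 of 48 members were higher in ΔRPL22A than in WT and 0 were lower, with 1.39% of all genes called higher and 1.88% lower (edgeR). They were RPF1, NUG1, NOP15, PUF6, NOC2 and ERB1. The median log2 fold change was 0.74, against 0.03 over all genes, and 38 members had non-overlapping libraries with ΔRPL22A higher, against 24.2% of genes. Against ΔRPL22B, 19 members were higher and 0 lower, with 2.45% of genes called higher and 2.97% lower. The median was 0.95, against 0.00 over all genes, and 46 of 48 members had non-overlapping libraries, against 24.9% of genes. This set took in longer mRNAs that were not called in other pools, among them RIX7, NOP7, NOC2, DRS1, HAS1 and PUF6.

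NOP7, a scaffold of the complex it forms with Erb1 and Ytm1, had 61.9 and 50.7 CPM in ΔRPL22A heavy polysomes and 18.96 and 29.9 CPM in ΔRPL22B heavy polysomes, against 32.4 and 38.2 CPM in WT heavy polysomes. RIX7, an AAA ATPase that removes Nsa1, had 17.0 and 17.0 CPM in ΔRPL22A and 5.46 and 6.19 CPM in ΔRPL22B, against 10.4 and 15.03 CPM in WT. For both, the ΔRPL22A libraries were highest and the ΔRPL22B libraries lowest, without overlap. Over ΔRPL22B the log2 fold changes were 1.196 ± 0.30 for NOP7 and 1.54 ± 0.32 for RIX7 (adjusted p of 0.0175 and 0.00551, edgeR), while over WT they were 0.67 ± 0.29 and 0.41 ± 0.30 and were not called.

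ERB1 had 35.5 and 33.2 CPM in ΔRPL22A heavy polysomes and 12.9 and 13.2 CPM in ΔRPL22B heavy polysomes, against 10.2 and 19.6 CPM in WT heavy polysomes. PUF6, an RNA-binding partner of Loc1, had 38.7 and 33.2 CPM in ΔRPL22A and 9.48 and 14.2 CPM in ΔRPL22B, against 9.59 and 17.8 CPM in WT. Both stood apart in ΔRPL22A from either other strain, with log2 fold changes over WT of 1.199 ± 0.33 for ERB1 and 1.39 ± 0.37 for PUF6 (adjusted p of 0.0363 and 0.0325, edgeR). TIF6, raised in light polysomes, had 41.8 and 49.1 CPM in ΔRPL22A heavy polysomes and 31.9 and 35.9 CPM in ΔRPL22B, against 47.7 and 37.7 CPM in WT, and its ΔRPL22A and WT libraries overlapped.

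Without the 4 libraries closest to another pool, among them WT heavy replicate 2, 18 members were called against WT and 41 against ΔRPL22B. The heavy polysome libraries of both deletion strains are the same in that fit. It leaves 1 library in 4 groups, among them the groups whose duplicates spread most, so the pooled spread can shrink. Whether the added calls come with that or with larger strain differences was not tested. Coding length did not order the heavy polysome differences as it did those in input. The 24 shorter members had a median log2 fold change over WT of 0.79 and the 24 longer of 0.66, and over ΔRPL22B the medians were 0.95 and 0.94. The 6 calls against WT ended (0 called) when the compared groups were fitted alone, without ΔRPL22A replicate 1 and without ΔRPL22A replicate 2, fell to 1 without WT replicate 1 and numbered 6 without WT replicate 2. The 19 calls against ΔRPL22B became 0 or 11 when replicate 1 or 2 of ΔRPL22A was left out, and 1 or 4 when replicate 1 or 2 of ΔRPL22B was, with member medians of at least 0.79 in each of these fits.

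**Figure D3:**
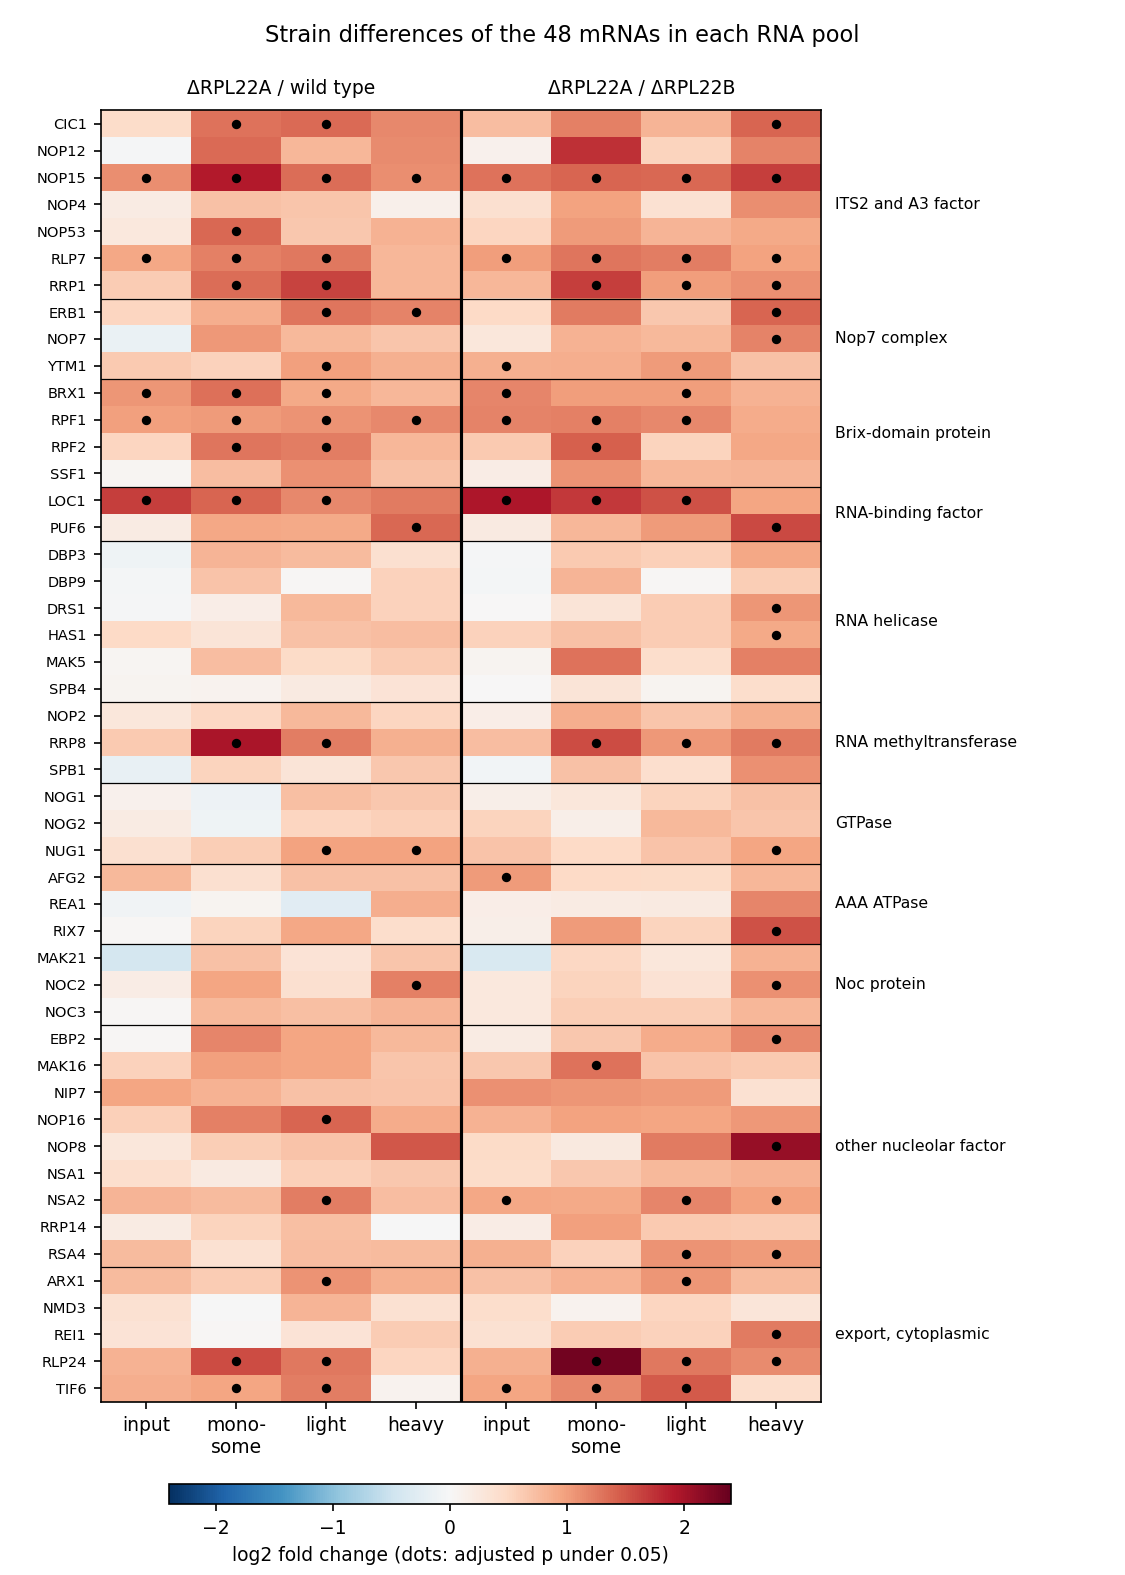
Log2 fold change (colour) of ΔRPL22A over WT (left 4 columns) and over ΔRPL22B (right 4 columns) in each pool for all 48 members (rows, grouped by role). Black dots mark an adjusted p under 0.05. Nearly all cells are above 0. NOP15 carries a dot in all 8 columns, and dots among helicases occur only in heavy polysomes against ΔRPL22B.

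NOP15 was called in all 4 pools against WT and in all 4 against ΔRPL22B. RPF1 was called in 4 and 3 pools, RLP7 in 3 and 4, LOC1 in 3 and 3, and BRX1 in 3 and 2. RPF1, a Brix-domain protein of the early precursor, had 12.2 and 12.4 CPM in ΔRPL22A input and 6.47 and 4.43 CPM in ΔRPL22B input, against 5.97 and 6.51 CPM in WT input. RLP7, a paralog of the ribosomal protein Rpl7 that binds ITS2, had 23.2 and 26.3 CPM in ΔRPL22A input and 11.6 and 12.99 CPM in ΔRPL22B input, against 12.7 and 13.3 CPM in WT input. As the plot of CPM by library shows, the ΔRPL22A libraries of NOP15, RLP7 and RPF1 lay above those of both other strains in each pool. In all, 20 members were called in at least 1 pool against WT, 28 against ΔRPL22B and 30 against either. The 18 called in neither were DBP3, DBP9, MAK21, MAK5, NIP7, NMD3, NOC3, NOG1, NOG2, NOP12, NOP2, NOP4, NSA1, REA1, RRP14, SPB1, SPB4 and SSF1, which include 4 of the 6 helicases. A missed threshold does not show that these did not differ. SSF1 shares 4.04% of its 50-base windows with another locus, as its paralog is near-identical in part, and reads of REI1 may be shared with the overlapping gene SLM6. NOG2, with 2 coding exons, overlaps SNR191 in the annotation, and how reads there were assigned was not stated.

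**Figure D4:**
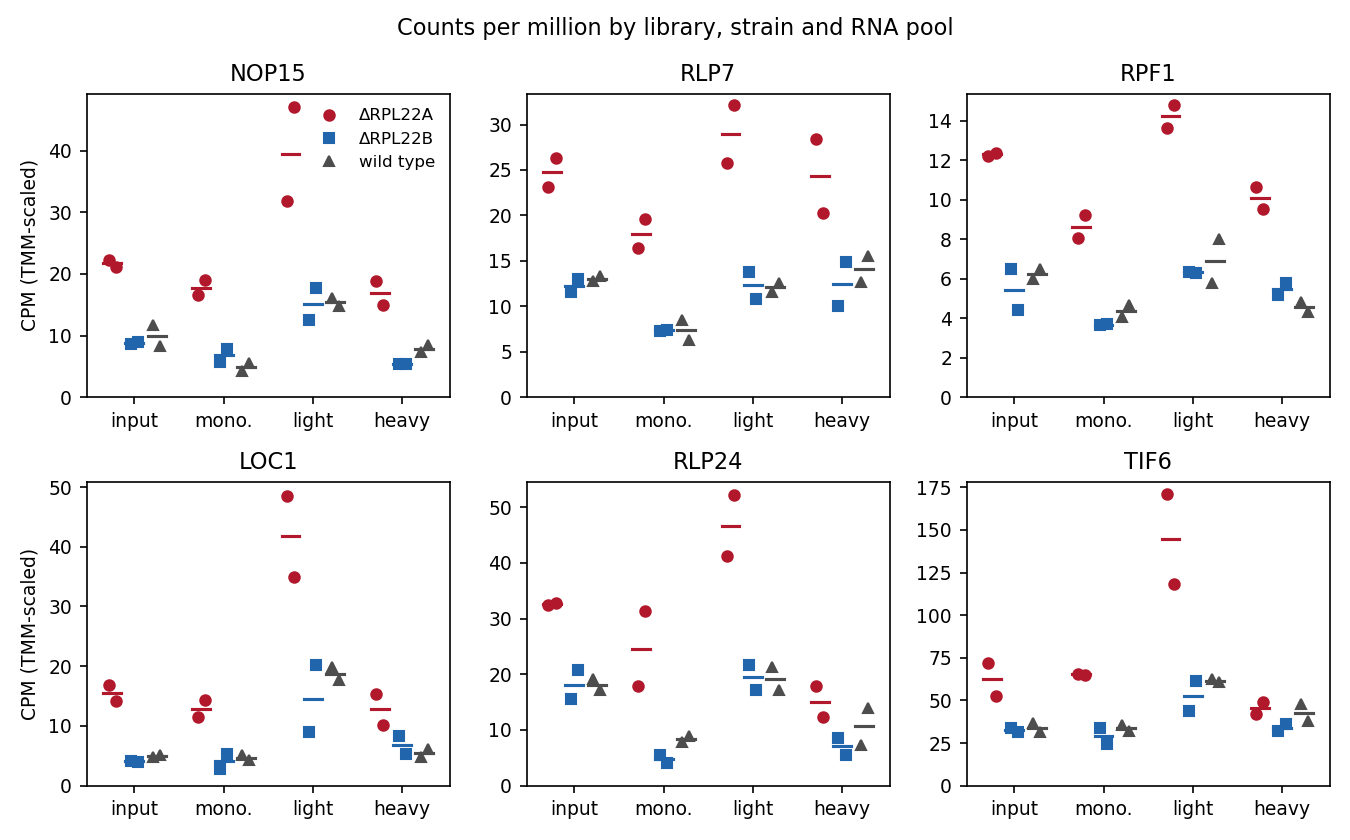
TMM-scaled CPM (y axis) of 6 members in each pool (x axis). Points are libraries (2 per group) and bars are means. In input, monosomes and light polysomes both ΔRPL22A points exceed those of ΔRPL22B and WT for each of the 6. In heavy polysomes RLP24 and TIF6 of ΔRPL22A overlap WT.

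No member was called between ΔRPL22B and WT. In input, monosomes, light and heavy polysomes, 0 of 48 members were called in each pool (edgeR), with 0.335%, 0.353%, 0.353% and 0.316% of all genes called in either direction. At an unadjusted p under 0.05 there were 0, 0, 1 and 2 members (RPF2 in light polysomes, NOP4 and RIX7 in heavy polysomes), against 1.47%, 3.77%, 4.83% and 4.81% of all genes, and DESeq2 called 0 in each pool. Medians of the members were -0.11 in input, -0.18 in monosomes, 0.05 in light polysomes and -0.17 in heavy polysomes, against 0.00, -0.02, 0.02 and 0.02 over all genes. Log2 fold changes were below 0 for 43, 33, 17 and 38 of 48 members in the same pools, so most members leaned lower in ΔRPL22B except in light polysomes. RIX7 was furthest from 0, at -1.12 ± 0.34 in heavy polysomes (adjusted p of 0.494, edgeR).

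Within each strain, some of the assembly factor mRNAs took a larger share of heavy polysome RNA than of monosome RNA. Of the 48 members, 19 were higher in heavy polysomes in ΔRPL22A (12.8% of all genes), 7 in ΔRPL22B (7.66%) and 15 in WT (10.3%), and 0 were lower in any strain (edgeR), against 13%, 7.27% and 12% of all genes. Member medians of the log2 ratio were 0.70 in ΔRPL22A, 0.58 in ΔRPL22B and 0.63 in WT, against 0.00, 0.01 and -0.02 over all genes of the same strains. NUG1 (a GTPase), NOP7, NOP2 and MAK21 are examples called in all 3 strains. NOP7 had 61.9 and 50.7 CPM in heavy polysomes and 18.8 and 20.4 CPM in monosomes of ΔRPL22A, and 32.4 and 38.2 CPM in heavy polysomes and 10.7 and 7.61 CPM in monosomes of WT. In both strains the pools were far apart, with log2 ratios of 1.53 ± 0.30 in ΔRPL22A and 1.89 ± 0.32 in WT (adjusted p of 0.000720 and 0.000197, edgeR). Of 72 other large-subunit ribosomal protein genes, 52 were lower and 0 higher in heavy polysomes than in monosomes in ΔRPL22A, 19 lower and 2 higher in ΔRPL22B, and 29 lower and 4 higher in WT.

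The heavy to monosome ratio was higher for members with longer coding sequences, as it was among all genes. Spearman's rho over the 48 members was 0.73 in ΔRPL22A, 0.30 in ΔRPL22B and 0.32 in WT, against 0.63, 0.38 and 0.44 over 5301 genes. In ΔRPL22A, 17 of the 24 longer members and 2 of the 24 shorter were called, with medians of 1.06 and 0.27. In WT 10 longer and 5 shorter members were called, with medians of 0.74 and 0.51. REA1 had 39.2 and 39.8 CPM in heavy polysomes and 9.65 and 11.2 CPM in monosomes of ΔRPL22A, a log2 ratio of 1.93 ± 0.38. RLP24, with 600 coding bases, had 17.9 and 12.3 CPM in heavy polysomes and 17.9 and 31.4 CPM in monosomes of ΔRPL22A, a log2 ratio of -0.67 ± 0.31 that was not called. Calls in ΔRPL22A numbered 9 without monosome replicate 1, 10 without monosome replicate 2, 9 without heavy replicate 1 and 20 without heavy replicate 2. In ΔRPL22B they numbered 0 without monosome replicate 1, 1 without monosome replicate 2, 3 without heavy replicate 1 and 0 without heavy replicate 2. In WT they numbered 6, 11, 17 and 4 without those libraries of WT.

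**Figure D5:**
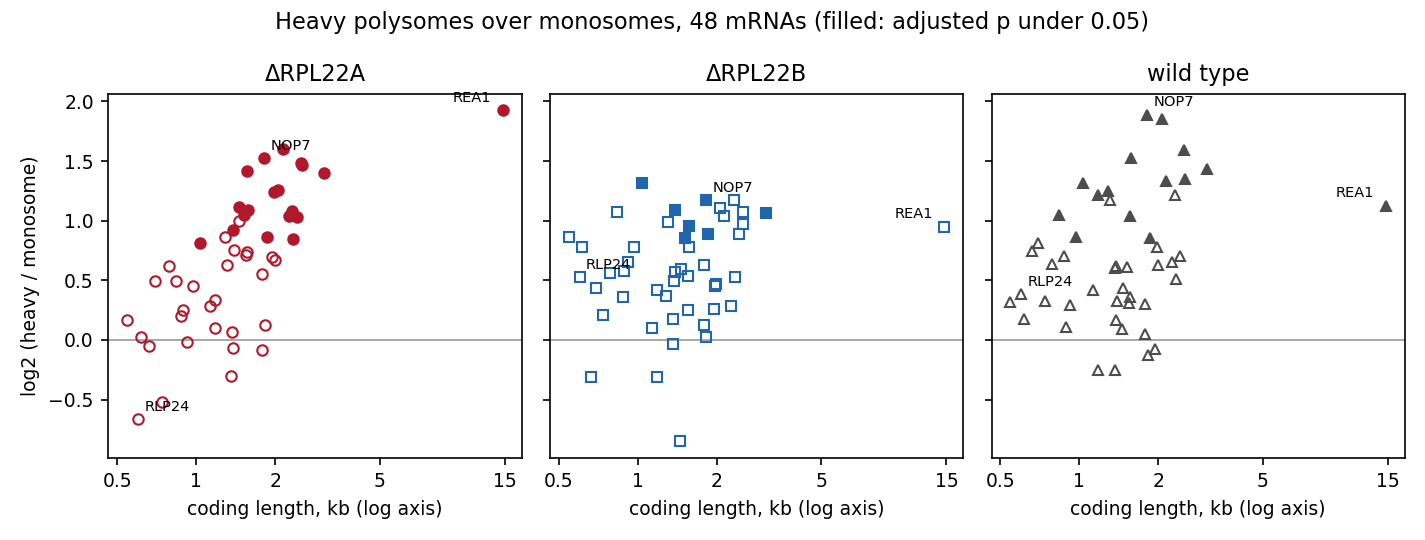
Log2 ratio of heavy polysomes to monosomes (y axis) against coding length in kb (log x axis) for the 48 members in ΔRPL22A, ΔRPL22B and WT, filled where the adjusted p is under 0.05. Most points lie above 0 and the slope is steepest in ΔRPL22A (rho 0.73, against 0.30 and 0.32). REA1, at 14733 bases, is the point at the right.

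The members whose mean CPM peaked in light polysomes were short, as were the genes that did so in the whole table. The pool with the highest mean CPM was light polysomes for 13 members in ΔRPL22A (546 to 1179 coding bases, median 786), 13 in ΔRPL22B (546 to 1785, median 786) and 7 in WT (546 to 888, median 663). Light polysomes were the peak for 27.1%, 27.1% and 14.6% of members in these strains, against 27.8%, 25.5% and 27.0% of 5301 genes (medians of 714, 655.5 and 651 bases), so this share was near or below that of all genes. NIP7, RLP24, LOC1, NOP15, TIF6, BRX1 and RPF1 peaked there in all 3 strains, whereas MAK16, with 921 bases, did so in none. NIP7 had 12.9 to 15.8 CPM in WT input, 29.5 to 34.3 in monosomes, with light polysomes at 54.7 to 82.8 and heavy polysomes at 26.5 to 52.8. Heavy polysomes were the peak for 29 members in ΔRPL22A (median 1821 bases), 19 in ΔRPL22B (median 1563) and 21 in WT (median 1785), against 31.1%, 21.9% and 23.3% of genes. Monosomes were the peak for 4 members in ΔRPL22A, 2 in ΔRPL22B and 2 in WT, against 23.5%, 24.3% and 23.8% of 5301 genes in the same strains. CPM values of different pools are shares of each pool and not amounts of RNA.

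Against input, more members were lower than higher in monosomes, mainly in ΔRPL22B and WT. The share called lower in ΔRPL22A was near that of all genes. In ΔRPL22A, 1 member was higher and 3 lower (8.2% and 5.54% of all genes), in ΔRPL22B 2 and 14 (16.7% and 12.7%), and in WT 1 and 19 (17.2% and 13.6%). Member medians were -0.29 in ΔRPL22A, -0.63 in ΔRPL22B and -0.62 in WT, against 0.03, -0.03 and -0.02 over all genes of the same strains. RPF2 had 4.496 and 4.23 CPM in WT monosomes, against 13.7 and 10.6 CPM in WT input, a log2 ratio of -1.46 ± 0.32 (adjusted p of 0.00103, edgeR). NOP53, which brings the exosome to ITS2, went the other way. It had 13.7 and 15.8 CPM in ΔRPL22A monosomes, against 3.91 and 5.33 CPM in ΔRPL22A input, a log2 ratio of 1.67 ± 0.30 (adjusted p of 0.000315, edgeR). Of 72 other large-subunit ribosomal protein genes, 28 were higher and 0 lower in ΔRPL22A monosomes, 38 higher and 3 lower in ΔRPL22B monosomes, and 34 higher and 2 lower in WT monosomes. Calls of members in either direction, with input replicate 1, input replicate 2, monosome replicate 1 and monosome replicate 2 left out in turn, numbered 5, 3, 1 and 1 in ΔRPL22A, 10, 5, 4 and 7 in ΔRPL22B, and 8, 13, 7 and 10 in WT.

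Heavy polysomes were also set against input. In ΔRPL22A 15 members were higher and 1 lower (10% and 6.9% of all genes), in ΔRPL22B 5 and 1 (10.6% and 5.93%), and in WT 4 and 0 (7.04% and 3.27%). The shares called higher in ΔRPL22B and WT were near those of all genes. NOP53, NIP7 and RRP14 were called higher in heavy polysomes than in input in all 3 strains. RRP14 had 7.72 and 3.41 CPM in heavy polysomes and 1.72 and 1.49 CPM in input of ΔRPL22A, and 3.67 and 8.15 CPM in heavy polysomes and 1.72 and 1.01 CPM in input of WT, so that the pools did not overlap although duplicates spread widely. Calls in ΔRPL22A in either direction numbered 3 without input replicate 1, 20 without input replicate 2, 5 without heavy replicate 1 and 11 without heavy replicate 2. In ΔRPL22B the same 4 omissions gave 3, 1, 2 and 3, and in WT they gave 1, 0, 1 and 4.

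Whether the fraction ratios themselves differed between strains was tested as an interaction. No member passed in the heavy to input ratio of ΔRPL22A against WT, of ΔRPL22A against ΔRPL22B or of ΔRPL22B against WT (edgeR, 0 of 48 in each). All genes gave 0% called in each of these. At an unadjusted p under 0.05 there were 4, 7 and 1 members (6.99%, 12.3% and 2.27% of all genes), with smallest adjusted p values of 0.703, 0.286 and 0.99994, and DESeq2 called 0 members in any interaction. The light to input ratio gave 0 members in ΔRPL22A against WT (0.0558% of all genes called) and 0 against ΔRPL22B (0%), with 2 and 0 members at an unadjusted p under 0.05 (7.77% and 5.30% of all genes). The monosome to input ratio, added after the data were seen, gave 0 members against WT and 0 against ΔRPL22B (0% of all genes in both), with 6 and 2 at an unadjusted p under 0.05 (7.38% and 7.66% of all genes). Member medians of these interactions for ΔRPL22A against WT were 0.27 for heavy polysomes, 0.42 for light polysomes and 0.35 for monosomes. Leaving out 1 library moved these to 0.12 to 0.52, 0.29 to 0.72 and 0.18 to 0.73. Against ΔRPL22B they were 0.42 for heavy polysomes, 0.23 for light polysomes and 0.30 for monosomes, moving to 0.24 to 0.69, 0.09 to 0.40 and 0.14 to 0.59. RIX7 had the smallest p, with a heavy to input interaction against ΔRPL22B of 1.39 ± 0.44 (adjusted p of 0.286, edgeR).

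Some genes from lists of other ribosome assembly factors were also higher in ΔRPL22A than in WT, where 2.16%, 2.73%, 3.42% and 1.39% of all genes were in the same 4 pools. Of 34 tested genes from a list of 35 other large-subunit factors, 3, 7, 8 and 2 were higher than in WT in input, monosomes, light and heavy polysomes, and 0 were lower. SDO1, which helps release Tif6, had a log2 fold change over WT of 1.39 ± 0.31 in input and 1.43 ± 0.36 in heavy polysomes. Of 36 genes of the small-subunit processome, 2, 5, 5 and 2 were higher and 0 lower, with IMP4, a Brix-domain protein of that complex, at 0.97 ± 0.25 in input and 1.90 ± 0.29 in light polysomes. Medians in heavy polysomes were 0.58 for the other large-subunit factors and 0.60 for the processome, against 0.74 for the 48 members. Of 8 RNA polymerase I genes, 1, 1, 3 and 0 were higher than in WT and 0 lower. The 72 other large-subunit ribosomal protein genes had medians of 0.40, 0.39, -0.23 and -0.34 in the same 4 pools, with 0 called higher and 3, 3, 6 and 4 lower, among them RPL7B, RPL8A and RPL9B, whose reads may be shared with a near-identical paralog. The input medians of both kinds of genes were thus above 0 while those in heavy polysomes differed in sign. Of 4 listed regulators of these genes, 0 were called against WT in any pool. TOD6, a repressor that binds PAC, was higher in ΔRPL22A than in ΔRPL22B in monosomes (2.32 ± 0.55) and heavy polysomes (1.57 ± 0.45). Of all genes, 1.49% and 2.45% were called higher in these pools. DOT6, its paralog, was lower in light polysomes (-1.29 ± 0.35), where 2.99% of all genes were. In input 0 of the 4 regulators were called against ΔRPL22B, with a median of -0.51. The TOD6 and DOT6 calls were not checked with libraries left out.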

How the data were processed

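Whole-number counts per gene, as deposited by the authors, were the only values used. Per the submitters' processing notes, RSEM 1.2.18, SAMtools 0.1.19 and cutadapt 1.4 were used with the sacCer3 build, in roles that are not stated, and the series design states that reads of a barcode from 2 lanes were merged. How reads were assigned to genes, and how reads matching several genes were treated, was not stated in the labels. Of 6369 table rows, 5908 matched the R64 annotation by systematic name.

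Counts of 24 libraries were scaled by TMM and fitted in 1 edgeR 4.0.16 quasi-likelihood model with 12 groups and 12 residual degrees of freedom (R 4.3.3, limma 3.58.1). The model treated all libraries as independent. Pools of the same strain and replicate number may come from the same culture, which the labels do not say. The 5380 genes passing filterByExpr (minimum count 10, minimum total 15) were tested with Benjamini-Hochberg adjustment, and an adjusted p under 0.05 was a call. The SE of a log2 fold change is its size divided by the root of F. CPM are TMM-scaled, except that summed shares use non-rDNA counts. The labels call the duplicates biological without naming separate cultures, so p-values measure the spread between libraries, pooled over groups. The code was tested on simulated data.

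The members and gene lists were chosen with earlier results of these data known. All members may be named, with values by library for called members (up to 12 a comparison), the 5 highest and 3 lowest in WT input, and 9 members named in the choice of genes. Of other lists, up to 4 called genes a comparison are named. Alternatives were DESeq2 1.42.0, relative log expression scaling, no low-count filter, rDNA rows removed, compared groups fitted alone, a replicate block, and libraries left out. The monosome to input interactions and the length trend without 1 input library were added after the data were seen.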

Additional observations from a re-analysis of the deposited data

How the results depend on the processing

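With 2 libraries a group, the number of called members depended on the fit. Among the alternative values of called members, 1611 stayed past the threshold, 567 lost it and 0 changed sign, as large differences seldom would. Over all 48, members above 0 in input over WT numbered 40 in all libraries and 28 without ΔRPL22A replicate 2. Of 91 calls between strains, 6 passed with any 1 library left out: LOC1 in input and RLP24 in monosomes against ΔRPL22B, and NOP15, RPF1, TIF6 and LOC1 in light polysomes against ΔRPL22B. Only the first 2 also passed in every other fit. A left-out library leaves 1 in its group, assumed to vary like the other groups. Duplicates spread most in light polysomes of ΔRPL22A and ΔRPL22B, and leaving 1 out hides that spread. Passing there does not show that a call is stable. Members had a median count of 15 to 243.5 per library, with up to 9 members under 10 counts, which limits the lowest ones.

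Leaving out each library in turn gave 0 to 5 called members in input for ΔRPL22A over WT and 1 to 8 over ΔRPL22B, 1 to 6 and 1 to 5 in monosomes, 2 to 8 and 8 to 16 in light polysomes, and 0 to 6 and 0 to 11 in heavy polysomes. Heavy polysomes against monosomes gave 9 to 20 in ΔRPL22A, 0 to 3 in ΔRPL22B and 4 to 17 in WT. Heavy polysomes against input gave 3 to 20, 1 to 3 and 0 to 4 in the same strains, and monosomes against input gave 1 to 5, 4 to 10 and 7 to 13. ΔRPL22B over WT and the interactions gave 0 throughout.

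Without the 4 libraries closest to another pool (ΔRPL22A input replicate 1, ΔRPL22A light replicate 2, ΔRPL22B light replicate 1 and WT heavy replicate 2), calls for ΔRPL22A over WT numbered 8 in input, 23 in monosomes, 26 in light polysomes and 18 in heavy polysomes. Over ΔRPL22B they numbered 14 in input, 23 in monosomes and 41 in heavy polysomes. In the same fit heavy polysomes against monosomes gave 30 in ΔRPL22A and 15 in ΔRPL22B, heavy polysomes against input gave 8 in WT, and monosomes against input gave 15 in ΔRPL22A. With only the compared groups fitted, ΔRPL22A over WT gave 12 in input, 19 in monosomes and 0 in heavy polysomes, and over ΔRPL22B 17 in input, 21 in monosomes, 0 in light polysomes and 40 in heavy polysomes. That fit gave 11 for ΔRPL22B heavy polysomes against monosomes, 11 for ΔRPL22B heavy polysomes against input, 7 and 25 for monosomes against input in ΔRPL22A and ΔRPL22B, and 1 for the heavy to input interaction of ΔRPL22A against ΔRPL22B. With rDNA rows removed, heavy polysomes gave 10 over WT and 29 over ΔRPL22B, and input gave 8 over WT. DESeq2 gave 8 in input over WT and 4 for ΔRPL22B heavy polysomes against monosomes, and no low-count filter gave 8 for ΔRPL22A monosomes against input. The cause of these differences was not tested.

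The replicate block gave 5 in input, 11 in monosomes, 16 in light polysomes and 7 in heavy polysomes over WT, and 9, 10, 13 and 16 over ΔRPL22B, and changed no count by more than 1.5 times. Deviations of same-numbered libraries correlated at -0.40 to 0.12 over the pairs of groups compared. No such pair set light polysomes against another pool of the same strain. The block was shared by all strains and did not model pairing within a strain. The labels do not say whether same-numbered libraries share a culture, and these correlations cannot decide it. The median of all genes moved by over 0.1 (log2) in 1 case, the monosome to input interaction of ΔRPL22A against ΔRPL22B with DESeq2 (0.11).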
